A study of Mus musculus with 4 samples.

Results

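The genes described here encode cytoskeletal and nuclear intermediate filament proteins in S-180 mouse tumour cells, an established sarcoma line. They are the keratin genes Krt5, Krt8, Krt14, Krt18 and Krt19, the type III genes Vim and Des, the type IV gene Nes and the lamin genes Lmna and Lmnb1. All 10 were found among 23771 mouse symbols matched to an array probe, through the transcript accession of each probe, and they had 12 distinct probes of 56558. The choice used no measured value, but it was made with earlier results of these data known. RNA was profiled on 4 single-colour Agilent arrays: 2 from cells cultured for 12 h with fluoxetine at 20 µM, and 2 from cells left untreated for the same time. Fluoxetine is an antidepressant that blocks serotonin reuptake. Both groups came from the same purchased line and were kept in RPMI medium with 10% fetal bovine serum. The labels call the arrays of a group biological replicates and do not say whether the cultures were separate, so p-values measure only the spread between these samples.

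Intermediate filaments form from pairs of rod-shaped proteins. Type I and type II keratins pair with each other and are the filaments of epithelia: Krt8 and Krt18 in simple epithelia, Krt5 and Krt14 in the basal layer of stratified epithelia. Vimentin is typical of mesenchymal cells, desmin of muscle and nestin of progenitor cells, while the lamins line the inside of the nuclear envelope in most cells. The set is used as a readout of epithelial against mesenchymal identity, and the comparison asked whether it differed after fluoxetine.

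Values are background-corrected spot intensities, scaled so that the 75th percentile of the distinct probes was equal on all arrays. Before scaling that percentile was 356 and 419 on the fluoxetine arrays, against 449 and 415 on the control arrays. The share of non-control spots marked as well above background was 51.7% to 53.5%, saturation was marked on 0, and precision is set by how few arrays there are. An intensity depends on its probe, so levels of different genes are not ranked. A log2 change is fluoxetine minus control, with its standard error from limma after ±, and a gene is said to have risen or fallen where limma's Benjamini-Hochberg adjusted p over all 13539 tested genes was under 0.05. A gene was tested when both arrays of 1 or more groups read a probe of it well above background, and its brightest such probe stood for it.

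In fluoxetine-treated cells Krt14 and Lmnb1 were lower than in control cells, Krt14 to 0.225 of its control level, and no member was higher past the threshold. Of the 9 members tested, 0 rose, 2 fell and 7 did not pass. Among all tested genes 16.8% rose and 10.1% fell, 26.9% in either direction, so a count of 2 in 9 (22.2%) was near the background. The median log2 change was −0.05 over the tested members and 0.06 over all tested genes. Without Krt5, which passed the filter through its fluoxetine arrays, the member median was −0.12. Group values were fully separated for 5 of the 9, in 4 of them with fluoxetine lower, against 72.5% of all tested genes in either direction and 30.9% with fluoxetine lower. With 2 arrays against 2, an exact two-sided permutation test of a single gene cannot go below p = 0.333.

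**Figure D1:**
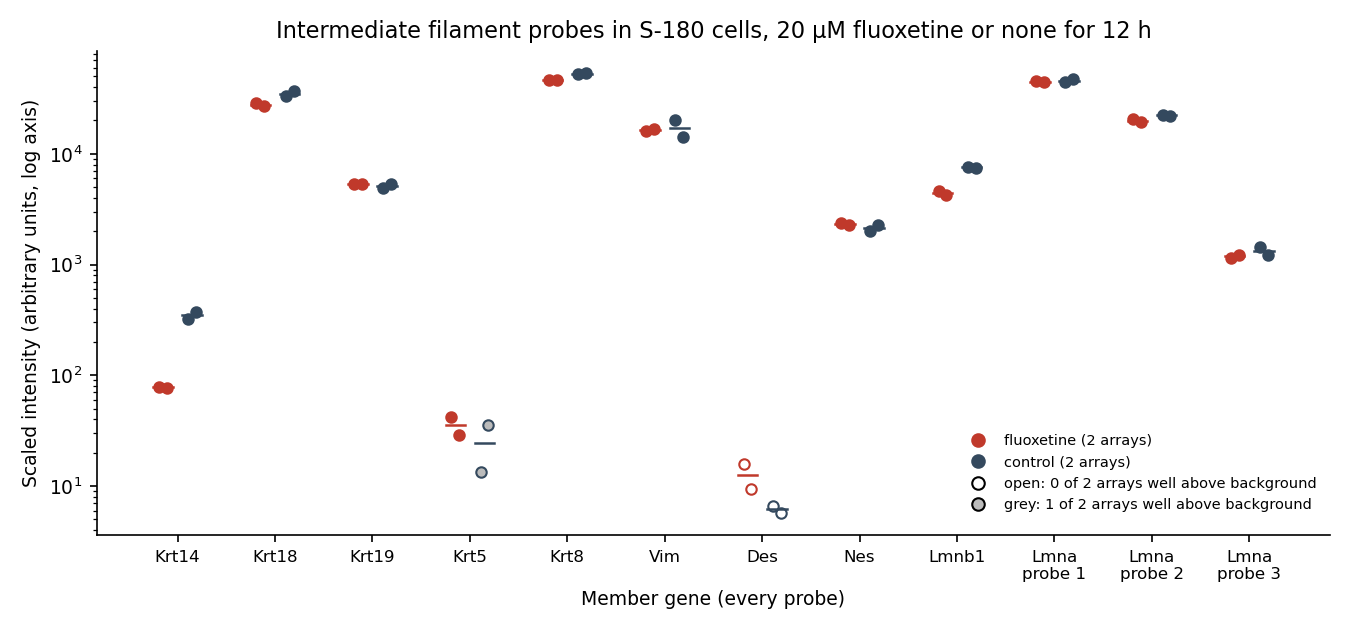
Scaled intensity (log axis, arbitrary units) of each of the 12 member probes on the 2 fluoxetine arrays (left of each pair) and the 2 control arrays (right), with bars at the group means. Krt14 lies at 78.9 and 77.1 with fluoxetine against 320 and 374 in control, and Des is not well above background on any array.

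Krt14, the type I keratin of basal cells, had scaled intensities of 78.9 and 77.1 with fluoxetine, against 320 and 374 in control. Both fluoxetine values lay far below both control values, and all 4 were well above background. Krt14 fell by 2.15 on the log2 scale (−2.15 ± 0.11, adjusted p = 0.00761 in limma), a fold change of 0.225. The call was lost without fluoxetine 1 (adjusted p = 0.0502) and without a filter on dim probes (adjusted p = 0.0799), while the change stayed between −2.26 and −2.04 with any array left out. After normexp background correction it was −1.43 and still passed (adjusted p = 0.000408).

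Krt5, the type II partner of Krt14, read 42.4 and 29.0 with fluoxetine, against 13.3 and 35.4 in control. The groups overlapped, and the lower control array was not well above background, so the gene was tested through its fluoxetine arrays alone. Its change was 0.69 ± 0.53 (adjusted p = 0.37), with a 95% interval from −0.77 to 2.16. Without control 1 it was −0.01 and without control 2 it was 1.40. Trp63, the transcription factor of basal cells, read 706 and 688 against 931 and 811 in control and did not pass (−0.32 ± 0.10, adjusted p = 0.0861).

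The simple epithelial keratins among the members, Krt8, Krt18 and Krt19, were well above background on every array. Krt8 read 46490 and 46020 with fluoxetine, against 52080 and 53960 in control. Krt18, its partner, read 28490 and 26950 with fluoxetine, against 33330 and 36640 in control. For both genes each fluoxetine value was below each control value, and neither passed. The change was −0.20 ± 0.07 for Krt8 (adjusted p = 0.121) and −0.33 ± 0.09 for Krt18 (adjusted p = 0.0635). Krt18 was near the threshold: it passed with quantile normalization (adjusted p = 0.044), with only probes above background on all arrays (0.0476) and with the percentile taken over all spots (0.0436), and over all settings its adjusted p ran from 0.0436 to 0.247. Scaling to the array median turned Krt8 to 0.02 and brought Krt18 to −0.12.

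Krt19, a small type I keratin of simple and ductal epithelia, read 5356 and 5355 with fluoxetine, against 4936 and 5284 in control. Its change was 0.07 ± 0.08 (adjusted p = 0.543), with an interval from −0.15 to 0.29. It was −0.02 after normexp background correction and 0.28, past the threshold, with scaling to the array median (adjusted p = 0.0327).

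Krt8 and Krt18 are next to each other among the coding genes of chromosome 15, where Krt18 sits at the edge of the type II cluster although its protein is type I. Their promoters are shown with that of Vim, the mesenchymal counterpart, because these genes carry the epithelial against mesenchymal readout. Each is the 250 bases before the annotated start, 5′ to 3′ on the strand of the gene, from RefSeq on GRCm38.p6, at chr15:102004343-102004592 (minus strand) for Krt8, chr15:102027966-102028215 (plus strand) for Krt18 and chr2:13574061-13574310 (plus strand) for Vim. Capitals mark motif matches.
Krt8: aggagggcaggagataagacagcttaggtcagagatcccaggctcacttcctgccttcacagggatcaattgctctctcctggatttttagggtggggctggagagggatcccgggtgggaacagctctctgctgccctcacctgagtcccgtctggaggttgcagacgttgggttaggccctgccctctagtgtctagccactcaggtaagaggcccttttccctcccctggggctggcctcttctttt
Krt18: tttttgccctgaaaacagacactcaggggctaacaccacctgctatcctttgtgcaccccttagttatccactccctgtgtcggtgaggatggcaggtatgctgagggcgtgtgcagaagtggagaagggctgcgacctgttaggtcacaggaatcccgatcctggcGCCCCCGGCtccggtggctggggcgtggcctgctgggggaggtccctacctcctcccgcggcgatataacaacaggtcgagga
Vim: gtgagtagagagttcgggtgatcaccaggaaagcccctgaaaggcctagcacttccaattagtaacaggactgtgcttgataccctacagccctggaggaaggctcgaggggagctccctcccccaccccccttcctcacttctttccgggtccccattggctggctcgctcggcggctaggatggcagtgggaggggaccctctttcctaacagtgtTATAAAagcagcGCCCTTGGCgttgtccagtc

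The motifs searched, on both strands, were AP-1 (TGANTCA), AP-2 (GCCNNNGGC), Sp1 (GGGCGG) and the TATA box (TATAAA). The Krt18 window held 1 AP-2 match. The Vim window held 1 AP-2 match and 1 TATA box that began 32 bases before the start, with no overlap between them. The Krt8 window held none of these letters. Of 32851 such windows in the table, 6.75% held AP-1, 13.7% AP-2, 32.7% Sp1 and 12.4% the TATA box, so these matches are a description of common letters.

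Vim, which encodes vimentin, read 15940 and 16650 with fluoxetine, against 20290 and 14070 in control. The control arrays lay on both sides of the fluoxetine arrays. The change was −0.05 ± 0.20 (adjusted p = 0.858), with an interval from −0.60 to 0.50. Its sign depended on the control array used: 0.21 without control 1 and −0.32 without control 2, and it was 0.16 with scaling to the array median. Des, the muscle filament gene desmin, read 15.7 and 9.33 with fluoxetine, against 6.57 and 5.71 in control, and was not well above background on any array, so it was not tested and no fold is given. Nes, which encodes nestin, read 2383 and 2274 with fluoxetine, against 2024 and 2278 in control. The Nes groups overlapped, and its change was 0.12 ± 0.10 (adjusted p = 0.4), with an interval from −0.15 to 0.38; with scaling to the array median it was 0.33 and passed (adjusted p = 0.0365).

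Lmnb1 encodes lamin B1, a B-type lamin that stays attached to the nuclear membrane. It read 4663 and 4232 with fluoxetine, against 7612 and 7447 in control. The groups were well apart, and Lmnb1 fell by 0.76 on the log2 scale (−0.76 ± 0.09, adjusted p = 0.0155 in limma), a fold change of 0.59. The fall lay between −0.83 and −0.69 with any array left out, but the call was lost without control 1 (adjusted p = 0.0667), without fluoxetine 1 (0.0862), without fluoxetine 2 (0.0769) and without a filter on dim probes (0.0895).

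Lmna encodes the A-type lamins A and C and had 3 probes, the third of them designed on another transcript accession. The probe printed 10 times on the array read 45360 and 44230 with fluoxetine, against 44110 and 47280 in control, and its change was −0.03 ± 0.08 (adjusted p = 0.811). The second probe read 20460 and 19230 with fluoxetine, against 22500 and 22080 in control, with a change of −0.17 ± 0.09. The third read 1155 and 1226 with fluoxetine, against 1451 and 1219 in control, with a change of −0.16 ± 0.12. All 3 changes were below 0 and none passed in a fit over all 28270 tested probes (adjusted p from 0.213 to 0.825), in which 25.6% of probes were called and 13% fell. In that fit Krt14 (adjusted p = 0.0137) and Lmnb1 fell, 2 of the 11 member probes tested. Lmnb2, the other B-type lamin gene, read 585 and 603 with fluoxetine, against 592 and 654 in control, and did not pass (−0.07 ± 0.09). Whether Lmnb1 changed more than Lmna or Lmnb2 was not tested.

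**Figure D2:**
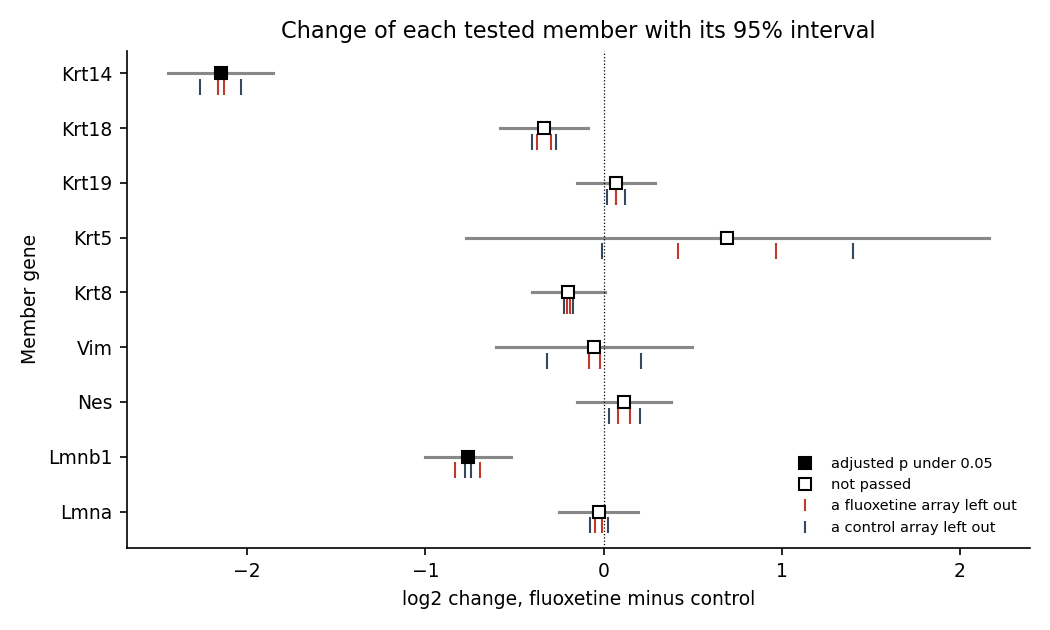
log2 change (fluoxetine minus control) of the 9 tested members with 95% intervals, filled squares where the adjusted p was under 0.05, and ticks for the change with each array left out. Krt14 (−2.15) and Lmnb1 (−0.76) stand apart from 0 with every array left out, while the ticks of Vim, Krt5 and Lmna fall on both sides of 0. The ticks of Krt8, Krt18, Krt19 and Nes keep their sign but lie nearer to 0 than those of Krt14 and Lmnb1.

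The other genes of the filament family were read from a list of 61, of which 60 had a probe and 23 were tested. In this list 1 rose (4.35%, against 16.8% of all tested genes), 5 fell (21.7%, against 10.1%) and 17 did not pass. The share called in either direction was 26.1%, near the 26.9% of all tested genes. The split by direction depended on the scaling: 4 rose and 2 fell with scaling to the array median, and 2 rose and 2 fell with quantile normalization. The median change was −0.02 over the 23, and −0.07 over the 19 that were well above background on every array. Krt16, a type I keratin of activated and wounded epidermis, read 442 and 422 with fluoxetine, against 1259 and 1257 in control. Its groups were far apart, and it fell by 1.54 on the log2 scale (−1.54 ± 0.08, adjusted p = 0.00741). The second Krt16 probe fell by 1.37 (180 and 193 with fluoxetine, against 487 and 475 in control). The keratin-like gene Krt222 read 662 and 816 with fluoxetine, against 2054 and 2193 in control, and fell by 1.53 (adjusted p = 0.0119).

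The smaller falls in the family were Krt83, a hair keratin gene (−0.48), Bfsp2, a filament gene of the eye lens (−0.37), and Krt79 (−0.35), with adjusted p from 0.0446 to 0.0477. None of these 3 passed with any array left out or with scaling to the array median. Krt83 has near-identical hair keratin copies that its probe may not tell apart. Krt10, the type I keratin of differentiating epidermis (2290 and 1984 with fluoxetine, against 1619 and 1739 in control), and Krt27 (639 and 632 against 613 and 628 in control) did not pass. With scaling to the array median, Krt10 (0.56), Krt27 (0.25) and the hair keratin gene Krt86 (0.43) were called higher.

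Sync was the family gene that rose under the 75th percentile scaling, and it was also called with scaling to the array median (2.21). It encodes syncoilin, an atypical filament protein known from muscle, where it binds desmin. Sync read 811 and 831 with fluoxetine, against 203 and 209 in control, a rise of 2.00 ± 0.07 (adjusted p = 0.00636) and a fold change of 3.99. The second Sync probe read 138 and 150 with fluoxetine, against 45.5 and 34.0 in control, and rose by 1.87 ± 0.18. Sync and Krt16 passed with each of the arrays left out in turn. Beside this, 10 muscle markers had summed intensities of 412 and 242 with fluoxetine, against 360 and 313 in control, and 2 of the 10 were well above background on all arrays. Myod1, Myog and Tnnt2 were not above background on any array. Of the 4 muscle markers tested 0 rose, and the share called was 25%, against 26.9% of all tested genes in either direction. That 25% was 1 gene that fell, where 10.1% of all tested genes fell. That gene, Myh3, an embryonic myosin, was above background on 1 fluoxetine array, passed in 0 of the 4 fits that left out an array, and had −0.99, or −0.24 after normexp.

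**Figure D3:**
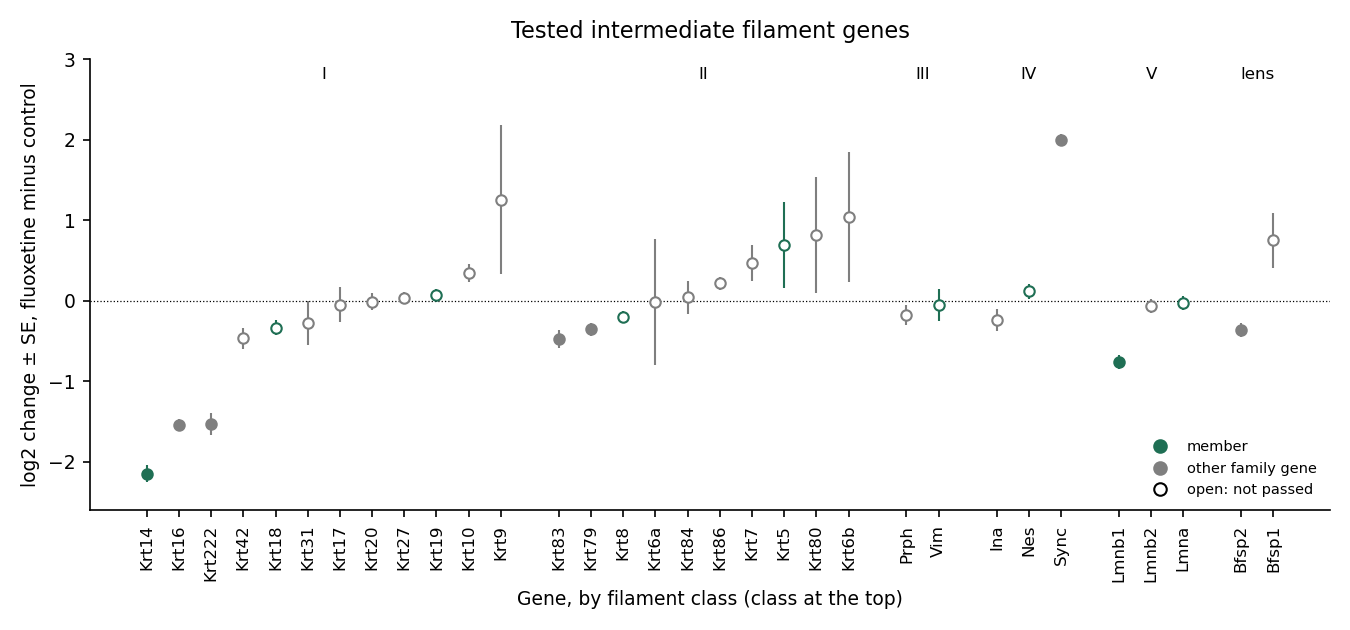
log2 change ± SE (fluoxetine minus control) of the 32 tested filament genes by class, members in green and other family genes in grey, filled where the adjusted p was under 0.05. Krt14, Krt16 and Krt222 are the filled points below −1, and Sync at 2.00 is the filled point above 0.

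By position, Krt19, Krt9, Krt14, Krt16, Krt17 and Krt42 follow each other without a break among the coding genes of chromosome 11. In that run Krt14 and Krt16 fell and are adjacent. Krt19 and Krt17 (50.5 and 42.0 with fluoxetine, against 39.7 and 57.1 in control) did not pass, nor did Krt42 (−0.47 ± 0.13, adjusted p = 0.067) and Krt9 (1.26 ± 0.93). Krt222 is the first keratin gene of the type I cluster on that chromosome.

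Linker proteins tie filaments to junctions or to each other. Of 20 listed, 17 were tested: 6 rose, 3 fell and 8 did not pass, a share called of 52.9% against 26.9% of all tested genes, with a median of 0.11. With scaling to the array median 8 rose and 1 fell, where 6299 of all 13539 tested genes were called, 5486 of them higher. With the replicate number as a block 5 rose and 0 fell, where 1859 of all tested genes were called. The main setting called 3647. Of the desmosomal genes in the list, Jup and Dsp rose, Pkp4 fell, Pkp2 and Pkp3 (−0.06 ± 0.13) did not pass, and Pkp1, Dsg2 and Dsc2 were too dim to test. Jup, which encodes plakoglobin, read 181 and 112 with fluoxetine, against 46.0 and 56.5 in control (1.48 ± 0.27, adjusted p = 0.0306, and 0.85 after normexp). Dsp, which encodes desmoplakin, the protein that anchors keratin at desmosomes, read 3613 and 3825 with fluoxetine, against 1473 and 1898 in control (1.15 ± 0.15, adjusted p = 0.0178). The plakins of the cornified envelope also rose, Ppl by 0.88 ± 0.15 and Evpl by 0.80 ± 0.09.

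Cryab, a small heat shock protein that binds desmin, read 18930 and 18510 with fluoxetine, against 3700 and 3994 in control, a fold change of 4.87, and Flna rose by 0.55, although its other probe had the opposite sign. The genes that fell were Plec, which encodes plectin, the general filament linker (10140 and 10460 with fluoxetine, against 16040 and 14560 in control, −0.57 ± 0.09), Eppk1 (−0.44) and Pkp4 (−0.38). Eppk1 and Pkp4 lost their calls with scaling to the array median. Both other probes of Pkp4 had the opposite sign. The brightest probe was chosen again with an array left out, and without control 1 another Pkp4 probe stood for the gene, with 0.36. Pkp2, a desmosomal plakophilin (4054 and 3516 with fluoxetine, against 3414 and 3573 in control), and Hspb1, a small heat shock protein (45830 and 44540 against 69460 and 51490 in control), did not pass. Leaving out any array lowered the number of calls over all genes as well as among the linkers. Jup, Eppk1, Flna and Pkp4 did not pass in any of the 4 fits that left out an array.

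Proteins that bind or mature the lamins were tested for all 18 listed genes, of which 4 rose, 1 fell and 13 did not pass, with a share called of 27.8%, near the 26.9% of all tested genes, and a median of 0.03. Syne1, which encodes nesprin-1, a link from the nuclear envelope to the cytoskeleton, read 1085 and 1059 with fluoxetine, against 570 and 585 in control (0.89 ± 0.07, adjusted p = 0.0117). Narf, a prelamin-binding protein, rose by 0.80 ± 0.12, Icmt, the methyltransferase that processes prelamins, by 0.62 ± 0.08, and Tor1aip1, a lamin-binding membrane protein, by 0.34. The other probe of Icmt fell, by 0.57 (adjusted p = 0.0436 over all probes), and that of Tor1aip1 also had the opposite sign. Syne3, which encodes nesprin-3, the nesprin that binds plectin, read 632 and 589 with fluoxetine, against 864 and 847 in control, and fell by 0.49 ± 0.08. Emd, which encodes emerin (17280 and 16280 with fluoxetine, against 20310 and 16140 in control), and Lemd2 (0.30, adjusted p = 0.0543) did not pass. Icmt, Tor1aip1 and Syne3 did not pass in any fit that left out an array, while Syne1 and Narf each passed in 2 such fits. Syne3 also lost its call with scaling to the array median. In this list, as over all genes, fewer were called with any array left out.

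Beside the keratins, epithelial markers were present in part. Of 25 listed, 11 were well above background on all arrays, and 11 on none. Cdh1, the gene of E-cadherin, was one of the dim ones (4.93 and 4.49 with fluoxetine, against 5.22 and 4.66 in control). The summed intensity of the 25 was 8046 and 7769 with fluoxetine, against 6206 and 6714 in control, with Ovol2 and Tjp3 as the largest terms. Of the 13 tested, 5 rose, 0 fell and 8 did not pass, against 16.8% of all tested genes that rose, and the median change was 0.43. Prss8 and Marveld2 passed the filter through their fluoxetine arrays alone, and without them the median was 0.38. Elf3, an epithelial transcription factor, read 130 and 119 with fluoxetine, against 69.5 and 78.2 in control (0.75 ± 0.10, adjusted p = 0.0195).

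Ovol2, a factor that maintains epithelial identity, read 2604 and 2300 with fluoxetine, against 1717 and 1647 in control (0.54 ± 0.10, adjusted p = 0.0295). The protease inhibitor gene Spint1 (0.53 ± 0.08), the splicing factor gene Esrp2 (0.43 ± 0.07) and the tight junction gene Tjp3 (0.38 ± 0.07) were the other rises. Epcam, a surface protein of epithelia (565 and 577 with fluoxetine, against 544 and 533 in control), and Grhl2, an epithelial transcription factor (−0.24, adjusted p = 0.086), did not pass. Ovol2, Spint1, Esrp2 and Tjp3 did not pass in any fit that left out an array, and Elf3 passed in 1 such fit. The change of Elf3 then ran from 0.67 to 0.83. Fewer epithelial markers were called with any array left out, as was the case over all genes.

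Of 25 mesenchymal markers, 18 were tested, and 3 rose, 4 fell and 11 did not pass, a share called of 38.9% against 26.9% of all tested genes. The median was −0.16, but Col1a2 and Cdh2 passed the filter through their control arrays alone, and over the other 16 it was −0.01. The summed intensity of the 25 was 40550 and 39740 with fluoxetine, against 43760 and 45400 in control, with S100a4 and Sparc as the largest terms. Col1a2, a type I collagen gene, was at least 2.38-fold lower with fluoxetine, where both arrays read it as dim (adjusted p = 0.0119). Its fitted change was −1.99, or −0.54 after normexp. Cdh11, a mesenchymal cadherin gene, read 1921 and 2335 with fluoxetine, against 3876 and 3421 in control (−0.78 ± 0.14, adjusted p = 0.0282), and Sparc, a matricellular gene, fell by 0.62 ± 0.07. The second probes of Cdh11 (−0.19 ± 0.11) and Sparc (−0.15 ± 0.10) did not pass. Tagln, an actin-binding protein of smooth muscle and fibroblasts, fell by 0.59 ± 0.08.

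The mesenchymal rises were the transcription factor genes Foxc2 (0.63 ± 0.15, adjusted p = 0.0487), Zeb2 (0.49) and Prrx1 (0.48), the last with another probe of opposite sign. None of these 3 passed with the replicate number as a block (adjusted p from 0.0543 to 0.0764), where 0 rose and 5 fell in the list. S100a4 (15350 and 13800 with fluoxetine, against 14300 and 14650 in control) and Cd44 (4694 and 4494 against 4562 and 4839 in control) did not pass. Of the 25 mesenchymal markers, 16 were well above background on all arrays and 7 on none, Pdgfrb among them. Mesenchymal calls, like those over all genes, became fewer with any array left out. Zeb2, Prrx1, Cdh11 and Tagln did not pass in any such fit. Whether the epithelial and mesenchymal lists differ from each other was not tested, and fewer cells of a type and less RNA per cell cannot be told apart in these bulk samples.

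**Figure D4:**
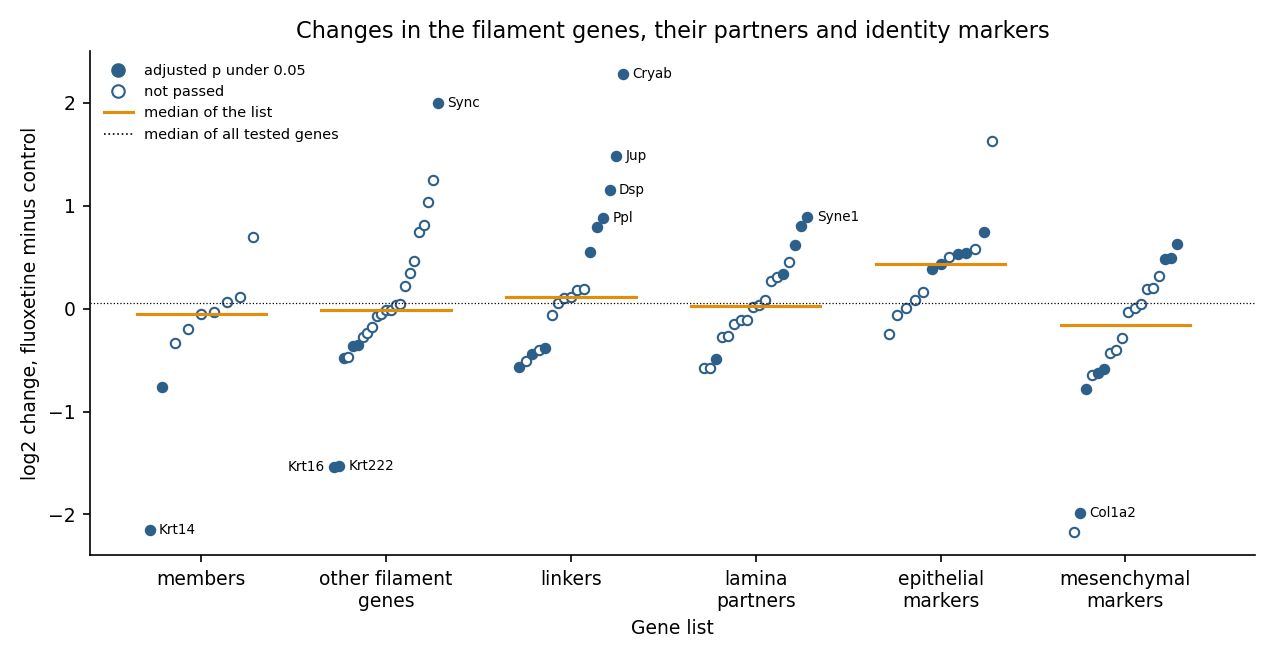
log2 change (fluoxetine minus control) of every tested gene in 6 lists, filled where the adjusted p was under 0.05, with the median of each list in orange and that of all tested genes (0.06) as a dotted line. Medians are 0.43 for the epithelial and −0.16 for the mesenchymal markers, or 0.38 and −0.01 without genes that were dim on an array, and both lists spread on either side of 0.

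Of 10 neural markers, 2 were well above background on all arrays, 6 were above it on none, Sox2 and Gfap among them, and their summed intensity was 918 and 722 with fluoxetine, against 923 and 808 in control. Among 10 leukocyte markers every array read 5 well above background, and the sum was 29870 and 26270 with fluoxetine, against 15500 and 16840 in control, mostly Cd68. Of the 5 tested, 2 rose and 1 fell, a share called of 60% against 26.9% of all tested genes. The fall was in Itgam, an integrin gene of myeloid cells. It read 506 and 519 with fluoxetine, against 2011 and 1973 in control (−1.96 ± 0.07, adjusted p = 0.00636). Cd3e, a T cell receptor subunit, rose by 0.53 ± 0.10. For both Itgam and Cd3e the other tested probe had a change of opposite sign. The defining leukocyte gene Ptprc and the macrophage genes Adgre1 and Lyz2 were not well above background on any array. Cd14 and Csf1r, of the same list, were well above background on every array and did not pass. Cd14 read 4923 and 4660 with fluoxetine, against 5035 and 5443 in control, and Csf1r 174 and 175, against 210 and 181. The part of other cells in the filament values was not tested.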

How the data were processed

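Each array has 1 deposited file of linear spot intensity, and per the file headers the software was Feature Extraction, version 12.1.0.3. The processed signal in it is background-corrected within the array. The deposited marks for control, non-uniform, outlying and well-above-background spots were also used, as set by the authors' software, per the file headers. What the authors did after that step is not stated in the labels.

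R 4.3.3 and limma 3.58.1 were used. Control spots and those marked as non-uniform were dropped (47 probes lost), and repeat spots were averaged on the log2 scale without population outliers. The 75th percentile of log2 signal over distinct probes was subtracted per array. Symbols came from the RefSeq table of GRCm38.p6, while the array design was annotated on mm9: 34645 probes matched 1 symbol and 21913 none. The comparison was lmFit and eBayes with group as the only term on all 4 arrays, tested on simulated data first. A gene dim on both arrays of a group has only a bound, against the lowest signal well above background. The members and gene lists were chosen with earlier results of these data known. The text names all members with every probe, the called family genes up to 6 and the 4 brightest, and, of each other list, up to 4 called genes with the largest change and the 2 brightest not called. Other genes were named after their values were seen. Alternatives covered background correction, scaling, the filter, the probe rule, the replicate number and each array left out. Normexp was run on the median spot signal and the mean was not used here; that, the percentile over all spots, the crossed pairing and the medians over genes above background on every array were chosen after seeing the data. All arrays lay on 1 slide, so no slide block was made.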

Additional observations from a re-analysis of the deposited data

How the results depend on the processing

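The cause of the shifts given here was not tested. Leaving out an array in turn gave 263 to 2161 called genes in all (3647 with all arrays), 0 to 2 members, 0 to 1 member probes, 3 to 7 other filament genes, 1 to 6 linkers, 0 to 3 lamina partners, 0 to 3 epithelial and 0 to 3 mesenchymal markers. The log2 change then ran from −2.26 to −2.04 for Krt14, −0.83 to −0.69 for Lmnb1, −0.011 to 1.40 for Krt5, −0.078 to 0.022 for Lmna and −0.32 to 0.21 for Vim. With dim probes kept, limma called 0 of 23771 genes (5272 at an unadjusted p under 0.05), 0 members (4 unadjusted), 0 member probes (3 unadjusted) and 0 in each other list; Krt14 had −2.15 (adjusted p = 0.0799) and Lmnb1 −0.76 (adjusted p = 0.0895). Scaling to the array median raised all changes by 0.21, so the median over all genes was 0.27 in place of 0.06. It called 6299 genes, 87.1% of them higher (62.3% otherwise), 4 members, 8 epithelial markers, 8 lamina partners and 11 mesenchymal markers, with 0.017 for Krt8, 0.16 for Vim, 0.19 for Lmna, 0.28 for Krt19 and 0.33 for Nes. Quantile normalization called 8 epithelial markers, 7 higher and 1 lower, and gave Krt18 −0.33. The filter for probes above background on all arrays left Krt18 at −0.335, and the percentile over all spots gave −0.37. Normexp gave Krt19 −0.022, Krt14 −1.43 and Col1a2 −0.54 (−2.15 and −1.99 otherwise); on the mean spot signal it was not run. The labels number the replicates without saying that a number marks a shared batch. The deviations of same-numbered arrays correlated at r = −0.107 over 28270 probes, so pairing was not taken up. With the replicate number as a block, the calls were 1859 genes, 1 member probe, 3 other filament genes, 5 linkers, 3 lamina partners, 1 epithelial and 5 mesenchymal markers (0 higher and 5 lower, against 3 and 4 without the block), and Krt14 and Lmnb1 still passed. The crossed pairing called 2679 genes, 2 members and 3 epithelial markers. Des was tested in no setting with a filter. Dim signal limits Des and Krt5.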

Other observations

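Several genes beside the filaments had probes whose values differed. For Ovol2 the dimmer probe rose by 1.64 ± 0.18 (97.4 and 89.6 with fluoxetine, against 25.9 and 34.7 in control), and the brighter one by 0.54. For Grhl2 the dimmer probe rose by 0.66 ± 0.09 (38.9 and 40.0 with fluoxetine, against 24.1 and 25.8 in control; adjusted p = 0.0206 over all probes), while the brighter one had −0.24 and did not pass. Emd had 4 probes, with changes from −0.35 to 0.32, none past the threshold. Cd68, a lysosomal membrane glycoprotein abundant in macrophages, read 23890 and 20520 with fluoxetine, against 7962 and 8947 in control.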
